A study of Mus musculus with 12 samples.

Results

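Transcript levels of heat shock proteins and their co-chaperones were described in clones of RAW264.7, a mouse macrophage cell line. Genes were taken as members by mouse symbol: those beginning with Hsp, Dnaj, Cct2 to Cct8 or Bag1 to Bag6, with Tcp1, Stip1 and Ahsa1, leaving out Hspa5, Hsp90b1, Dnajb9 and Hspg2 and genes that do not code for protein. This gave 68 of the 12483 genes of the counts table, and all 68 passed the filter on low counts. A further 21 annotated members are not analysed here, among them the heat-inducible Hspa1a and Hspa1b and the small heat shock protein gene Hspb1. The rule itself uses no measured value.

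The study deleted a region named NRE1 with a pair of CRISPR constructs in RAW264.7 cells, which were selected by GFP and puromycin resistance markers and grown out as single-cell clones. WT clones 1, 2 and 3, without the deletion, and KO clones 1A, 1B and 2, with it, were each sampled in medium and 6 h after addition of LPS (10 ng/mL) plus IFN-gamma (50 ng/mL). This made 4 groups of 3 libraries, with total counts of 10624591 to 14388590 per library. LPS is a bacterial cell wall component that Toll-like receptor 4 senses, and IFN-gamma is a lymphocyte cytokine, and the labels call the stimulated state M1. The labels do not say what NRE1 stands for, and no gene of the table bears that name, so the deletion could not be checked in these libraries. Nor do they say how KO clones 1A and 1B are related: over the 68 genes the median absolute difference of log2(CPM + 1) between them was 0.09 in medium and 0.08 under LPS/IFN-gamma, against 0.16 to 0.20 between either and KO clone 2 and 0.21 to 0.31 between WT clones. Levels are in CPM, a gene's counts brought to 1 library size, after TMM scaling of the libraries, a method that takes most genes as unchanged. All 10 macrophage marker genes chosen were in the table, and the 2 marker genes of other blood cells in it reached at most 2.84 CPM (S100a8) and 204 CPM (Ighm), while no marker of T or NK cells, fibroblasts or epithelium was measured.

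Heat shock proteins keep other proteins soluble and help them fold. HSP70 binds exposed hydrophobic stretches and cycles with ATP; J-proteins (the Dnaj genes) deliver clients and start ATP hydrolysis, and nucleotide exchange factors of the HSP110 and BAG families reset the cycle. HSP90 takes over later folding steps of kinases and receptors, and the ring-shaped chaperonin TRiC folds actin, tubulin and other cytosolic proteins. Heat shock factor 1 (Hsf1) drives many of these genes from heat shock elements, inverted repeats of the unit GAA. In macrophages, HSP90 clients include kinases that act downstream of Toll-like receptors. The symbol rule also takes in genes whose proteins work elsewhere: 3 chaperones and 7 J-proteins assigned here to mitochondria, and 7 J-proteins and Hspa13 assigned to the endoplasmic reticulum (ER), to which Dnajb12 and Dnajb14, grouped here with class B, also belong, so the set is wider than the cytosol.

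Heat shock elements were looked for as letters in the RefSeq promoter windows (build GRCm38.p6, 250 bases before to 50 after each start), which matched 54 of the 68 genes by symbol. The letters searched were GAANNTTC or TTCNNGAA for 2 units and GAANNTTCNNGAA or TTCNNGAANNTTC for 3 units, on both strands, where each 3-unit run holds overlapping 2-unit runs. A 2-unit run lay in a window of 13 of the 54 members (24.1%), against 14.0% of 8685 protein-coding genes of the table. A 3-unit run lay in a window of 4 of the 54 members (7.41%), against 0.518% of those genes. In all windows of the RefSeq table, members or not, the shares were 15.1% and 0.603%. These 4 genes were Hspd1 and Hspe1, which code for the mitochondrial chaperonin HSP60 and its lid HSP10, Hsph1, which codes for an HSP110, and Dnajb6. Their sequences are shown because 3 of the 4 were higher under LPS/IFN-gamma in WT and in KO clones, with the 3-unit letters in capitals. For Hspe1 and Dnajb6 they are the 250 bases before the start, both on the plus strand, at chr1:55087898-55088147 and chr5:29735648-29735897. For Hsph1 the 29 bases around the run are shown, on the minus strand at chr5:149636280-149636308.
Hspe1: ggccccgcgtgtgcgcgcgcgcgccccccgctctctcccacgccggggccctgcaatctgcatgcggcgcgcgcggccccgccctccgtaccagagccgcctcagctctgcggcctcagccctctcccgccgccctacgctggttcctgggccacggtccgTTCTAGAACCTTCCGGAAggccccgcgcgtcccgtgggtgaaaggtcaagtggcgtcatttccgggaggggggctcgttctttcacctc
Dnajb6: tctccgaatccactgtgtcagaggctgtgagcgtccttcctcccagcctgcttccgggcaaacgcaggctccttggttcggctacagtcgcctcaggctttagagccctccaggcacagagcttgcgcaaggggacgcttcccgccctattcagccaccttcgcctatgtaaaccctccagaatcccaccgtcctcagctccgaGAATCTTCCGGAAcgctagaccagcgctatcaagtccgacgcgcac
Hsph1: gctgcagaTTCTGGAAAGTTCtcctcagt

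The run before Hspe1 is 4 units long and starts 89 bases before its start. Hspd1 lies on the other strand of chromosome 1, and RefSeq gives it 2 windows: in 1 of them the same run, read on that strand, starts 144 bases before the start, and the other holds no run. Dnajb6 and Hsph1 also have 2 windows each. In Dnajb6 the run starts 46 bases before the start of the window shown and 127 bases before the other start, and in Hsph1 15 and 36 bases after the starts. Of the 17 matched members called higher under LPS/IFN-gamma in WT and in KO clones, 6 held a 2-unit run (35.3%) and 3 a 3-unit run, against 7 and 1 of the other 37. A match is a description of letters and not of binding, which was not measured. Members without a window were Bag4, Cct4, Dnajc11, Dnajc12, Dnajc18, Dnajc2, Dnajc22, Dnajc30, Dnajc5, Hsp90aa1, Hsp90ab1, Hspa13, Hspa8 and Hspa9.

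The first question was how these genes respond to LPS/IFN-gamma. The HSP90 genes, the constitutive HSP70 gene Hspa8, both class A and 3 of 7 class B J-protein genes, Hsph1, Bag3 and 6 of 8 TRiC genes were called higher under LPS/IFN-gamma in both genotypes, while the histone co-chaperone gene Dnajc9, Bag4 and 2 of 7 J-protein genes of mitochondria were called lower. In WT clones 22 members were called higher (32.4%) and 8 lower (11.8%), and 38 did not pass the test, where percent called over all 12231 genes tested was 23.8 higher and 23.6 lower. In KO clones 29 were called higher (42.6%) and 9 lower (13.2%), and 30 did not pass, against 26.7 and 27.6 percent of all genes. With clone as a replicate block, 33 were higher and 14 lower in WT clones and 38 and 11 in KO clones, where calls over all genes also rose in number, to 29.8 percent higher and 31.4 lower in WT and 32.1 and 34 in KO clones. A call is a Benjamini-Hochberg adjusted p below 0.05 over all genes from edgeR's quasi-likelihood test, and adjusted p-values below are from that test. The median log2 fold change over the members was 0.24 in WT and 0.32 in KO clones, against -0.01 over all genes in each. The calls are relative to TMM scaling: without it, on plain library totals, the all-gene median was -0.37 in WT and -0.39 in KO clones. On that scale 5 members were higher and 19 lower in WT clones, against 13 and 42.8 percent of all genes, and 11 and 18 in KO clones, against 14.7 and 45.1 percent, while the distance of the members' median from that of all genes stayed at 0.25 in WT and 0.33 in KO clones. Members took 1.33%, 1.57% and 1.77% of the counts in WT medium libraries and 1.41%, 1.68% and 1.70% in stimulated ones, which overlap, and 1.59% to 1.85% and 1.85% to 2.00% in KO libraries.

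**Figure D1:**
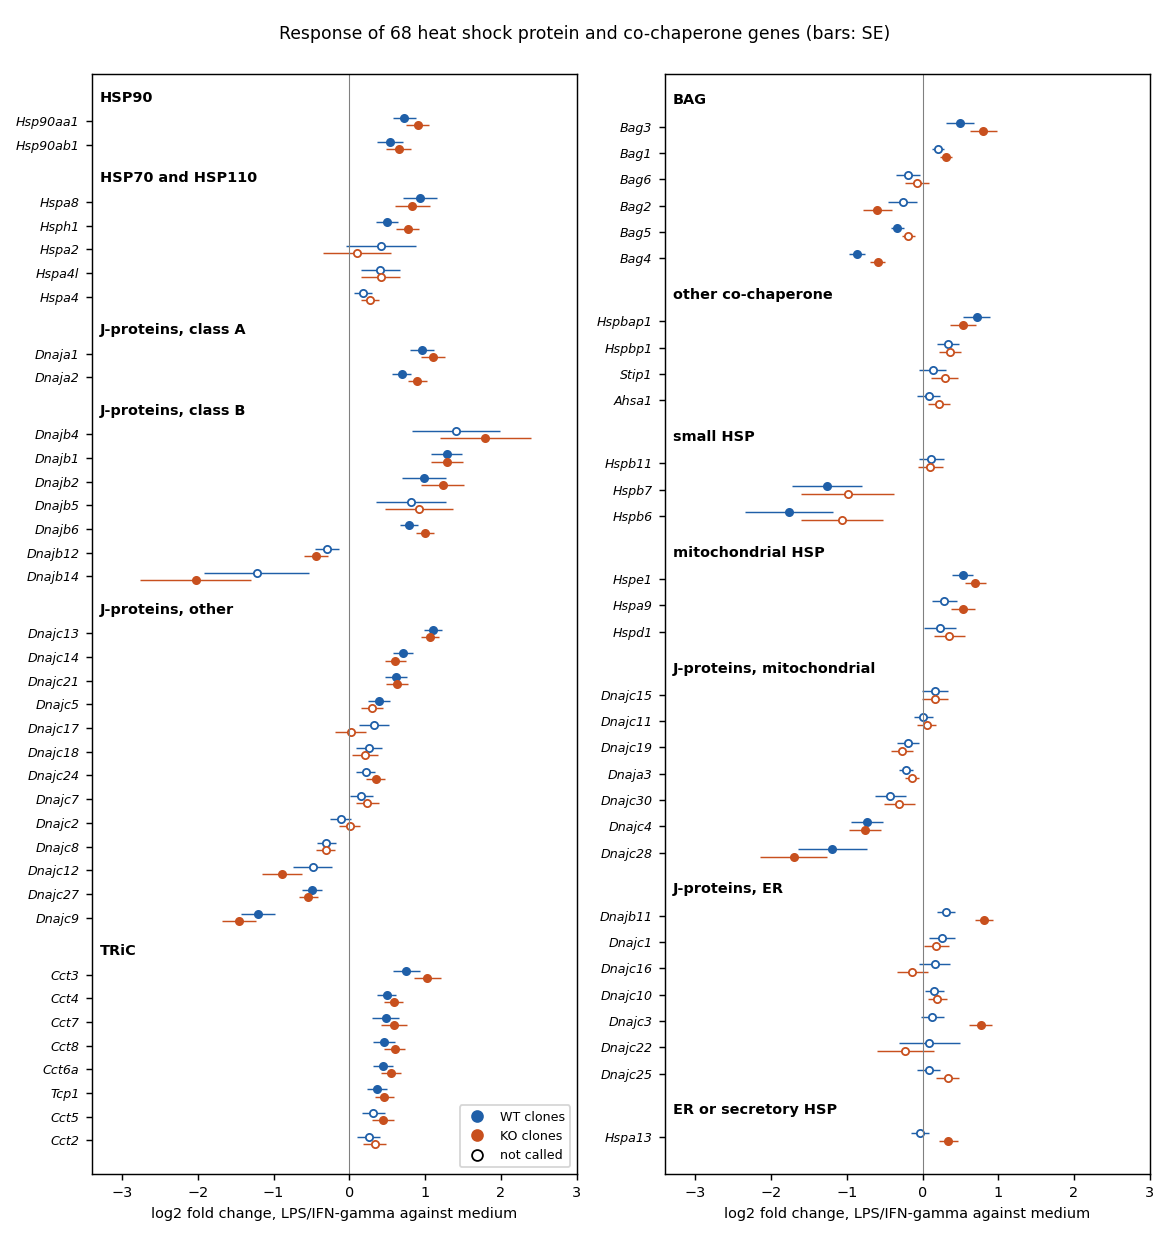
Log2 fold change of each of the 68 genes under LPS/IFN-gamma against medium (x axis, TMM scaling), by role, in WT clones (blue) and KO clones (orange), with bars for the SE and open points for genes that did not pass an adjusted p of 0.05. The HSP90, class A J-protein and TRiC genes lie to the right of 0 in both genotypes (on library totals Cct2 in both and Cct5 in WT clones lie to its left), and the mitochondrial J-protein genes mostly to its left.

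Both HSP90 genes rose in both genotypes. Hsp90aa1, the inducible form, stood at 226, 190.2 and 297 CPM in WT clones 1, 2 and 3 in medium and at 381, 361 and 439 CPM under LPS/IFN-gamma. In KO clones 1A, 1B and 2, the order used throughout, it stood at 265, 279 and 246 CPM and at 499, 446 and 531 CPM. The stimulated libraries lay above all medium libraries, by a log2 fold change of 0.73 ± 0.15 (SE, n = 3 clones) in WT clones (adjusted p = 0.00289, edgeR) and 0.90 ± 0.16 in KO clones (adjusted p = 0.000613). Hsp90ab1, the constitutive form, held 2010, 1750 and 2133 CPM in WT medium and 2923, 2492 and 3158 CPM under LPS/IFN-gamma. Its KO libraries held 2293, 2637 and 1633 CPM and 3364, 3516 and 3413 CPM, with KO clone 2 the lowest in medium. The groups did not overlap, and the log2 fold change was 0.54 ± 0.17 in WT (adjusted p = 0.0222) and 0.65 ± 0.17 in KO clones (adjusted p = 0.00779). Without the medium library of WT clone 2 the WT call of Hsp90ab1 was lost (adjusted p = 0.0761). Per kilobase of annotated exon, Hsp90ab1 had the highest level of the 68 genes, 870 CPM per kb over all libraries, and Hsp90aa1 had 88.2 CPM per kb. On library totals alone both genes kept positive log2 fold changes, of which only that of Hsp90aa1 in KO clones (0.52) was called.

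Among HSP70 and HSP110 genes, 2 of 5 rose in each genotype, and no member of this group fell. Hspa8, the constitutive HSP70, measured 144, 123 and 179 CPM in WT medium and 338, 223 and 291 CPM under LPS/IFN-gamma. In KO clones it measured 139.5, 222 and 124 CPM and 275, 279 and 309.5 CPM. KO clone 1B was the highest of the medium libraries, yet every stimulated library of a genotype lay above its medium libraries, with a log2 fold change of 0.93 ± 0.23 in WT (adjusted p = 0.00637) and 0.83 ± 0.23 in KO clones (adjusted p = 0.00978). On library totals alone the Hspa8 values of 0.58 and 0.45 were not called (adjusted p = 0.054 and 0.116, edgeR). Hsph1, an HSP110 that exchanges the nucleotide of HSP70 and helps it take aggregates apart, carries the 3-unit run shown above. It read 227, 185 and 227 CPM in WT medium and 285, 264 and 352 CPM under LPS/IFN-gamma. The KO libraries read 272, 262 and 211 CPM and 379, 415 and 476 CPM. The groups did not overlap in either genotype, and the log2 fold change was 0.49 ± 0.15 (adjusted p = 0.0184, 0.0758 without the stimulated library of WT clone 3) and 0.77 ± 0.15 (adjusted p = 0.00132). Hspa4, another HSP110, had 749.6, 646 and 794 CPM in WT medium and 947, 772 and 764 CPM under LPS/IFN-gamma, and its KO libraries had 772, 814 and 765 CPM and 971, 919 and 946 CPM. Its log2 fold changes of 0.18 and 0.27 did not pass (adjusted p = 0.22 and 0.0672) and were negative on library totals alone. Hspa4l and the low-level Hspa2 had log2 fold changes of 0.41 and 0.42 in WT and 0.41 and 0.10 in KO clones, none called. Processed copies of some of these genes lie elsewhere in the genome (those of Hspd1 and Hspa9 in the table read at most 15.0 and 4.93 CPM), and how reads shared with such copies were counted is not given in the sources used here.

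**Figure D2:**
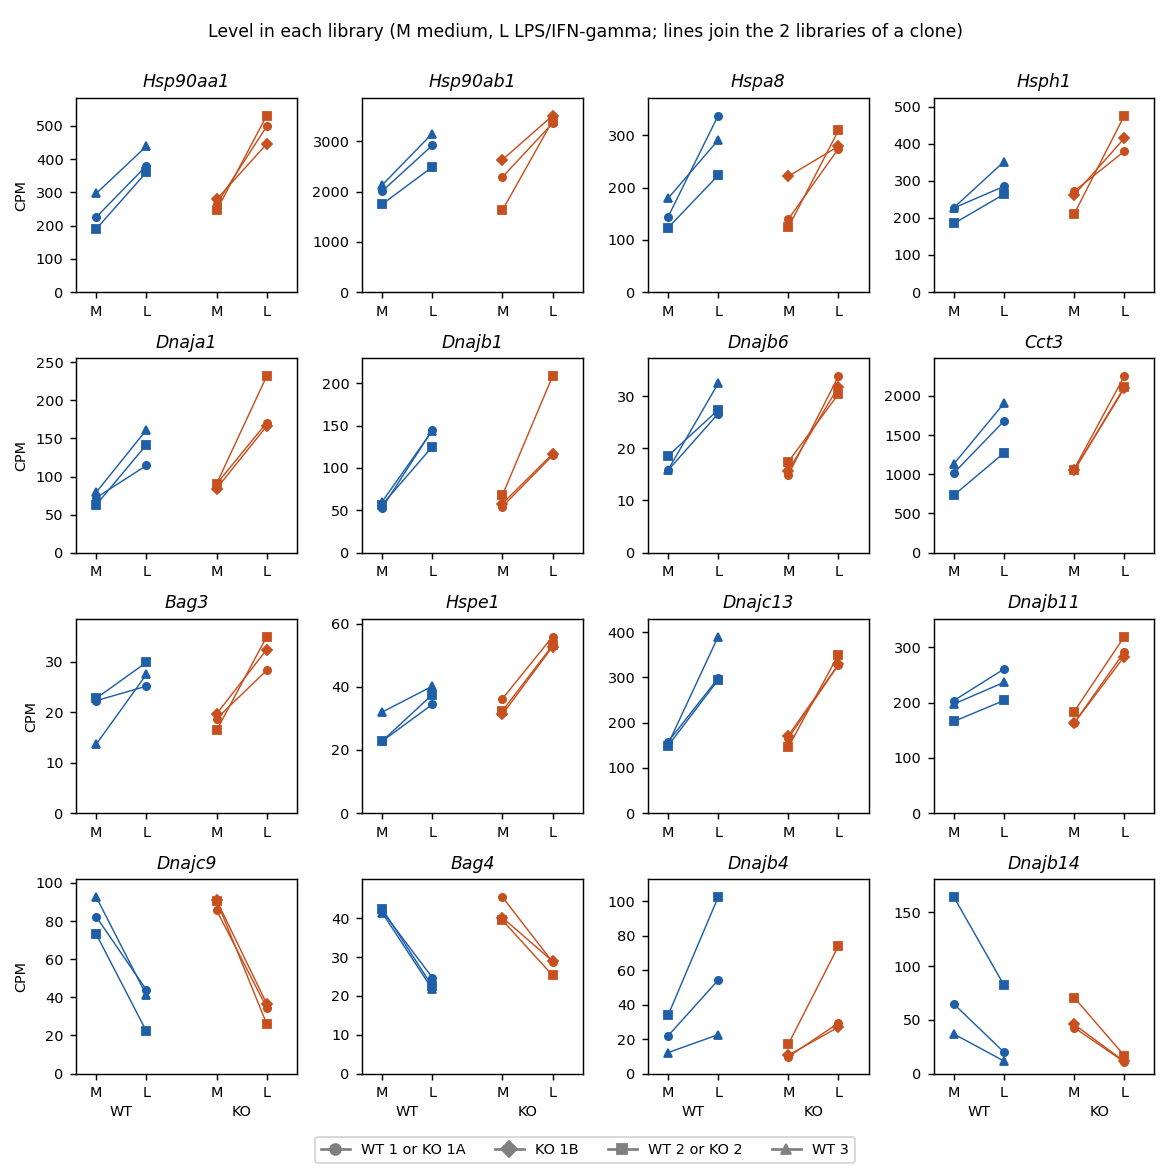
Level (CPM, y axes from 0) of 16 genes in each library, with a line joining the medium (M) and LPS/IFN-gamma (L) library of each clone, WT in blue and KO in orange. Every line of Hsp90aa1, Dnaja1, Dnajb1 and Cct3 goes up and every line of Dnajc9, Bag4 and Dnajb14 goes down, and the lines of Dnajb4 and Dnajb14 lie far apart between clones.

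Both class A J-protein genes, co-chaperones built like bacterial DnaJ, rose in both genotypes. Dnaja1 stood at 72.2, 62.9 and 79.4 CPM in WT medium and 115, 142 and 161 CPM under LPS/IFN-gamma. Its KO libraries stood at 90.4, 84.2 and 90.6 CPM and 171, 166 and 232 CPM, with KO clone 2 the highest of all. Its log2 fold change was 0.96 ± 0.16 in WT (adjusted p = 0.000587) and 1.10 ± 0.16 in KO clones (adjusted p = 0.000189), and Dnaja2 followed with 0.69 and 0.90. On library totals alone Dnaja1 stayed called in both genotypes (0.60 and 0.72).

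Of the 7 class B genes, 3 rose in WT and 4 in KO clones, and 2 fell in KO clones. Dnajb1, the main partner of HSP70 in the heat shock response, measured 53.0, 56.5 and 60.2 CPM in WT medium and 145, 125 and 144 CPM under LPS/IFN-gamma. In KO clones it measured 54.4, 57.9 and 67.9 CPM and 115, 117 and 209 CPM. All stimulated libraries lay above all medium ones, KO clone 2 the farthest, and the log2 fold change was 1.29 ± 0.21 (adjusted p = 0.000519) and 1.29 ± 0.21 (adjusted p = 0.000397). On library totals it stayed called, at 0.93 in WT and 0.90 in KO clones. Dnajb6, which keeps aggregation-prone proteins soluble, had 15.8, 18.6 and 15.9 CPM in WT medium and 26.7, 27.4 and 32.5 CPM under LPS/IFN-gamma. Its KO libraries had 14.9, 15.7 and 17.4 CPM and 33.9, 31.9 and 30.4 CPM, with no overlap between medium and stimulated libraries. The log2 fold change was 0.78 ± 0.12 (adjusted p = 0.000385) and 1.00 ± 0.12 (adjusted p = 5.82e-05). Dnajb2, a ubiquitin-binding J-protein at a low level here, read 6.23, 4.31 and 3.80 CPM in WT medium and 9.22, 12.5 and 6.74 CPM under LPS/IFN-gamma, and 5.02, 3.92 and 4.93 CPM and 8.39, 9.97 and 14.2 CPM in KO clones. It rose by 0.99 on the log2 scale in WT clones (adjusted p = 0.0151, 0.0607 without the stimulated library of WT clone 2) and by 1.23 in KO clones (adjusted p = 0.00406).

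Dnajb4 and Dnajb14 varied most between clones. The SD of log2(CPM + 1) between clones, pooled over the groups, was 0.78 for Dnajb4 and 0.92 for Dnajb14, above 96.8% and 97.8% of all genes tested, where the median was 0.19 over the members and 0.21 over all genes. Dnajb4 stood at 21.9, 33.8 and 12.2 CPM in WT medium and 54.2, 102 and 22.6 CPM under LPS/IFN-gamma. Its KO libraries stood at 9.75, 10.7 and 17.1 CPM and 29.4, 27.0 and 74.1 CPM. It was higher under LPS/IFN-gamma in all 6 clones, while the WT groups overlapped. The log2 fold change of 1.40 ± 0.58 did not pass in WT clones (adjusted p = 0.0706) and passed in KO clones (1.80 ± 0.60, adjusted p = 0.0268), but not without the stimulated library of KO clone 2 (0.126). Dnajb14, an ER membrane J-protein, read 64.7, 164 and 36.8 CPM in WT medium and 19.9, 82.2 and 11.7 CPM under LPS/IFN-gamma. The KO libraries read 42.7, 45.7 and 70.7 CPM and 10.9, 11.3 and 16.7 CPM. It was lower under LPS/IFN-gamma in all 6 clones, with WT clone 2 above the other clones in both conditions. The log2 fold change was -1.22 ± 0.70 in WT (adjusted p = 0.173) and -2.03 ± 0.73 in KO clones (adjusted p = 0.0368, 0.103 without the stimulated library of KO clone 1A). With clone as a replicate block, which compares each clone with itself, both genes were called in both genotypes, Dnajb4 with an adjusted p of 0.000165 in WT and 3.31e-05 in KO clones and Dnajb14 with 2.37e-05 and 3.26e-06. Dnajb12, its ER membrane relative, held 31.9, 31.6 and 25.2 CPM in WT medium and 26.7, 24.8 and 20.8 CPM under LPS/IFN-gamma, and 28.5, 31.2 and 23.6 CPM and 18.1, 23.5 and 19.9 CPM in KO clones. It fell by 0.44 on the log2 scale in KO clones (adjusted p = 0.0351, 0.131 without the medium library of KO clone 1B), and its WT value of -0.29 did not pass.

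Among 13 other J-protein genes, 4 rose in each genotype, 2 fell in WT and 3 in KO clones. Dnajc13, which acts in endosomal sorting, had 157, 149 and 152 CPM in WT medium and 298, 294 and 390.1 CPM under LPS/IFN-gamma. Its KO libraries had 165, 172 and 146 CPM and 328, 329 and 350.3 CPM. The medium libraries lay close together and far below the stimulated ones, with a log2 fold change of 1.10 ± 0.12 (adjusted p = 3.83e-05) and 1.06 ± 0.12 (adjusted p = 3.47e-05). Dnajc14 (0.71 and 0.61) and Dnajc21, which acts in ribosome biogenesis (0.62 and 0.63), also rose in both genotypes. Dnajc5, a J-protein of secretory vesicles, was called higher in WT clones (0.39) and Dnajc24, which acts in diphthamide synthesis, in KO clones (0.35); the difference of the 2 responses did not pass for either. Without the stimulated library of WT clone 2 the call of Dnajc5 was lost (adjusted p = 0.172), and without the medium library of KO clone 1B that of Dnajc24 (0.134), and Dnajc24 turned negative on library totals. Dnajc9, a histone H3-H4 co-chaperone of replicating cells, fell the most of the genes above 5 CPM called in both genotypes. It read 82.2, 73.1 and 92.6 CPM in WT medium and 43.9, 22.2 and 41.1 CPM under LPS/IFN-gamma. In KO clones it read 85.6, 90.9 and 90.8 CPM and 34.6, 36.6 and 26.0 CPM. No stimulated library reached a medium one, and the log2 fold change was -1.21 ± 0.22 (adjusted p = 0.00121) and -1.46 ± 0.22 (adjusted p = 0.000302). Dnajc27, which carries a Rab-like GTPase domain, held 22.8, 20.4 and 28.4 CPM in WT medium and 15.9, 16.7 and 18.1 CPM under LPS/IFN-gamma, and 29.8, 28.7 and 30.1 CPM and 20.4, 19.5 and 21.1 CPM in KO clones. It fell in both genotypes, by 0.50 and 0.54 on the log2 scale (adjusted p = 0.00861 and 0.00427). Dnajc12, a co-chaperone of aromatic amino acid hydroxylases, had 8.40, 11.2 and 10.6 CPM in WT medium and 5.57, 10.1 and 5.89 CPM under LPS/IFN-gamma, and 7.20, 7.98 and 9.87 CPM and 3.58, 4.69 and 5.25 CPM in KO clones. Its WT groups overlapped, though it was lower under LPS/IFN-gamma in all 3 WT clones, and its fall passed in KO clones (log2 fold change -0.89 ± 0.26, adjusted p = 0.0142), a call lost without the stimulated library of KO clone 1A (0.0598).

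The TRiC genes code for the 8 subunits of 1 complex. All 8 had positive log2 fold changes in both genotypes with TMM scaling, from 0.26 (Cct2) to 0.75 (Cct3) in WT and from 0.34 (Cct2) to 1.03 (Cct3) in KO clones, and 6 and 7 of them were called. The exceptions were Cct2 in both genotypes and Cct5 in WT clones, which were called with clone as a replicate block (Cct2 at an adjusted p of 0.0199 in WT and 0.00627 in KO clones, Cct5 at 0.00466). On library totals alone the sign of the Cct2 change was negative in both genotypes and that of Cct5 in WT clones, and only Cct3 in KO clones stayed called (0.65). Cct3 stood at 1015, 733 and 1132 CPM in WT medium and 1679, 1272 and 1905 CPM under LPS/IFN-gamma. Its KO libraries stood at 1067, 1050 and 1049 CPM and 2252, 2096 and 2112 CPM. WT clones ranked 3, 1, 2 in both conditions and KO clones lay within a narrow range, and the log2 fold change was 0.75 ± 0.17 (adjusted p = 0.00476) and 1.03 ± 0.18 (adjusted p = 0.000581). Tcp1, the first subunit described, had 748, 664 and 932 CPM in WT medium and 1024, 939 and 1057 CPM under LPS/IFN-gamma, and 803, 842 and 734 CPM and 1154, 1063 and 1061 CPM in KO clones. Its log2 fold change was 0.37 ± 0.13 (adjusted p = 0.0365) and 0.46 ± 0.13 (adjusted p = 0.0107), and the WT call was lost without the medium library of WT clone 2 (0.129). The WT calls of Cct6a (adjusted p up to 0.0618), Cct7 (0.163) and Cct8 (0.0782) and the KO call of Cct5 (0.0905) were also lost when 1 library was left out. Summed over the complex, WT libraries held 4467, 5200 and 6569 CPM in medium and 6525, 7466 and 8390 CPM under LPS/IFN-gamma, in ascending order, so that the highest medium library passed the lowest stimulated one, while KO libraries held 5739 to 6059 and 8671 to 9578 CPM. Per kilobase of annotated exon the 8 subunit genes spanned 104 (Cct7) to 359 CPM per kb (Cct2). This span also carries the annotated exon length merged over transcripts, 6778 bases for Cct7 and 2557 for Cct2.

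**Figure D3:**
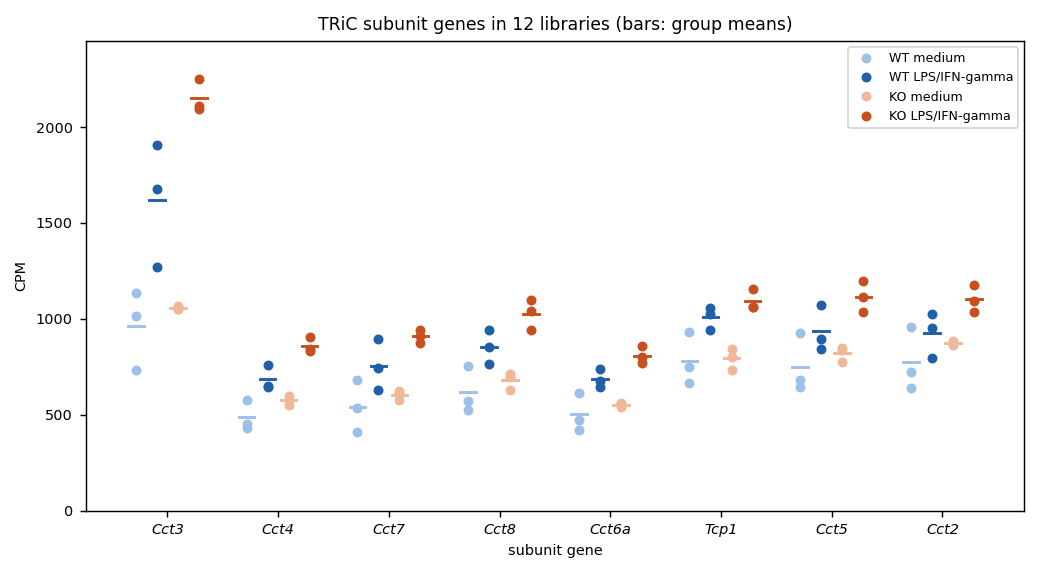
Level (CPM, y axis from 0) of the 8 TRiC subunit genes in each of the 12 libraries, WT in blue and KO in orange, pale for medium and dark for LPS/IFN-gamma, with short bars for group means. Cct3 shows the widest gap between conditions, from 733 to 1132 CPM in medium to 1272 to 1905 CPM under LPS/IFN-gamma in WT libraries and from 1049 to 1067 CPM to 2096 to 2252 CPM in KO libraries.

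Co-chaperones that bind HSP70 through a BAG domain split. Bag3, a stress-induced member that links HSP70 to selective autophagy, read 22.3, 22.8 and 13.7 CPM in WT medium and 25.2, 29.9 and 27.5 CPM under LPS/IFN-gamma. The KO libraries read 18.8, 19.7 and 16.4 CPM and 28.3, 32.5 and 35.0 CPM. It rose in both genotypes, with a log2 fold change of 0.49 ± 0.18 (adjusted p = 0.0454) and 0.80 ± 0.18 (adjusted p = 0.0036), though the WT call rested on the medium library of WT clone 3 (adjusted p = 0.132 without it). Bag4, known as a silencer of death domains, fell in both. It held 41.9, 42.4 and 41.4 CPM in WT medium and 24.7, 22.5 and 21.7 CPM under LPS/IFN-gamma, and 45.4, 40.2 and 39.5 CPM and 28.8, 28.9 and 25.3 CPM in KO clones. The groups lay well apart, with a log2 fold change of -0.87 ± 0.10 (adjusted p = 6.23e-05) and -0.59 ± 0.10 (adjusted p = 0.000542). Bag5 had 41.9, 41.4 and 45.4 CPM in WT medium and 35.0, 33.4 and 33.6 CPM under LPS/IFN-gamma, and 40.0, 39.3 and 41.4 CPM and 38.2, 33.6 and 34.0 CPM in KO clones. It fell in WT clones (log2 fold change -0.34 ± 0.09, adjusted p = 0.00917), and its KO value of -0.19 did not pass (adjusted p = 0.0918). Bag2, an inhibitor of the ubiquitin ligase CHIP, had 76.1, 48.6 and 58.4 CPM in WT medium and 55.6, 42.8 and 54.3 CPM under LPS/IFN-gamma, and 59.0, 67.5 and 51.0 CPM and 40.8, 45.1 and 31.3 CPM in KO clones. It fell in KO clones (log2 fold change -0.60 ± 0.19, adjusted p = 0.0215, 0.0843 without the stimulated library of KO clone 2), and the WT groups overlapped. Bag1 rose in KO clones (0.31, adjusted p = 0.00721) with 0.21 in WT clones (adjusted p = 0.0515), and its KO value was -0.07 on library totals alone. Bag6 had log2 fold changes of -0.19 and -0.08, not called.

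The general HSP90 co-chaperones among the members did not pass in either genotype. Stip1, which bridges HSP70 and HSP90, stood at 285, 222 and 357 CPM in WT medium and 311, 259 and 377 CPM under LPS/IFN-gamma, and at 342, 393 and 299 CPM and 433, 424 and 407 CPM in KO clones. The WT groups overlapped, and the log2 fold change was 0.13 ± 0.18 (adjusted p = 0.581) and 0.29 ± 0.18 (adjusted p = 0.2). Ahsa1, which speeds the ATPase of HSP90, measured 278, 209 and 285 CPM in WT medium and 318, 246 and 251 CPM under LPS/IFN-gamma, and 242, 258 and 247 CPM and 279, 262 and 329 CPM in KO clones. WT clone 3 went down and the other WT clones up, and the log2 fold change was 0.08 ± 0.15 (adjusted p = 0.687) and 0.22 ± 0.15 (adjusted p = 0.221). Both genes were negative on library totals alone in both genotypes. Hspbap1 rose in each (0.71 and 0.53, the KO call lost at 0.0965 without the stimulated library of KO clone 2), and the nucleotide exchange factor Hspbp1 was at 0.34 and 0.36, not called.

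Small heat shock proteins hold unfolded proteins without ATP, and 3 genes named for them were among the members analysed. Hspb6 and Hspb7, known from muscle and heart, reached at most 3.85 and 1.25 CPM, and Hspb11, a part of ciliary transport, 15.7 CPM. Hspb6 (log2 fold change -1.76 ± 0.58) and Hspb7 (-1.26 ± 0.46) fell in WT clones, both calls lost when 1 library was left out (adjusted p up to 0.094 and 0.128), and neither passed in KO clones (-1.06 and -0.99).

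In the mitochondrial chaperonin pair whose windows share the run shown above, Hspe1 rose and Hspd1 did not pass. Hspe1 had 22.8, 22.8 and 32.0 CPM in WT medium and 34.4, 37.5 and 40.2 CPM under LPS/IFN-gamma. Its KO libraries had 36.2, 31.3 and 32.4 CPM and 55.9, 52.7 and 53.1 CPM. The groups did not overlap, with a log2 fold change of 0.53 ± 0.14 (adjusted p = 0.00887) and 0.69 ± 0.14 (adjusted p = 0.00148). Hspd1 had 471, 333 and 580.1 CPM in WT medium and 634, 431 and 555 CPM under LPS/IFN-gamma, and 537, 617 and 432 CPM and 719, 669 and 640.2 CPM in KO clones. WT clone 3 went down and the other 5 clones up, and the log2 fold change was 0.23 ± 0.21 (adjusted p = 0.398) and 0.35 ± 0.21 (adjusted p = 0.174). The pair was not tested for a difference between its genes. Hspa9, the mitochondrial HSP70, was called in KO clones (0.53, adjusted p = 0.0157, 0.0574 without the medium library of KO clone 2) and not in WT clones (0.29).

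No mitochondrial J-protein gene rose, and 2 of 7 fell in both genotypes. Dnajc4 read 8.98, 11.4 and 10.6 CPM in WT medium and 5.02, 6.69 and 6.93 CPM under LPS/IFN-gamma, and 9.0, 9.53 and 9.62 CPM and 5.22, 4.20 and 7.22 CPM in KO clones. Its stimulated libraries lay below the medium ones, with a log2 fold change of -0.73 ± 0.21 (adjusted p = 0.0147) and -0.76 ± 0.21 (adjusted p = 0.0111). Dnajc28, at most 3.12 CPM in any library, was at -1.19 ± 0.45 (adjusted p = 0.0484, up to 0.196 without 1 library) and -1.70 ± 0.44 (adjusted p = 0.00762). The other 5, Dnaja3, Dnajc11, Dnajc15, Dnajc19 and Dnajc30, ranged from -0.43 to 0.16 in WT and from -0.31 to 0.16 in KO clones. On library totals all 7 were negative.

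The 7 J-protein genes assigned here to the ER, which leave out Dnajb12 and Dnajb14 described above, were not called in WT clones. There all 7 lay between 0.08 and 0.31, and 2 were called in KO clones. Dnajb11, a partner of the ER HSP70 and a gene that the unfolded protein response induces, measured 204, 166 and 197 CPM in WT medium and 261, 204 and 237 CPM under LPS/IFN-gamma. In KO clones it measured 163, 163 and 184 CPM and 292, 283 and 319 CPM. Its log2 fold change was 0.31 ± 0.12 in WT (adjusted p = 0.0505) and 0.81 ± 0.12 in KO clones (adjusted p = 0.000202), and with clone as a replicate block the WT value was called too (0.00472). Dnajc3, which lies in the ER lumen and is known to restrain the kinases PERK and PKR, measured 188, 147 and 172 CPM in WT medium and 225, 155 and 174 CPM under LPS/IFN-gamma. The KO libraries measured 139, 138 and 158 CPM and 240, 224 and 277 CPM. The WT groups overlapped, and the log2 fold change was 0.13 ± 0.15 in WT (adjusted p = 0.506) and 0.77 ± 0.15 in KO clones (adjusted p = 0.00134). On library totals alone both stayed called in KO clones (0.43 and 0.38) and all 7 genes were negative in WT clones. Hspa13, an HSP70 relative of microsomes, was called in KO clones (0.34, adjusted p = 0.0375, 0.148 without the medium library of KO clone 1B) and stood at -0.04 in WT clones, and its KO value was -0.04 on library totals.

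With clone as a replicate block, further members not called above passed. In WT clones those higher were Bag1 (adjusted p = 0.037), Dnajb5 (0.0246), Dnajc1 (0.047), Dnajc18 (0.0386), Hspa4l (0.0189), Hspa9 (0.0239) and Hspbp1 (0.0261). Those lower were Bag2 (0.0443), Dnaja3 (0.049), Dnajb12 (0.0378), Dnajc12 (0.0235) and Dnajc8 (0.0372). In KO clones those higher were Dnajb5 (adjusted p = 0.00628), Dnajc5 (0.00706), Dnajc7 (0.0462), Hspa4 (0.0266), Hspa4l (0.0249), Hspbp1 (0.0241), Hspd1 (0.0207) and Stip1 (0.0121). Those lower were Dnajc8 (0.0352) and Hspb6 (0.0187).

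The 2 responses use separate libraries and can be set side by side. Of the 68 genes 21 were called higher in both genotypes, 5 lower in both and 0 in opposite directions, and 64 had the same sign. Of all 12231 genes 2632 were called higher in both, 2582 lower in both and 2 in opposite directions, and 11018 had the same sign. Across the 68 genes, which are not independent replicates, the log2 fold changes correlated at a Pearson r of 0.94 and a Spearman rho of 0.93, as over all 12231 genes (0.95 and 0.93).

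The next question was whether the NRE1 deletion changes these genes. No member was called between KO and WT clones in medium, where percent called over all genes was 0.352 higher and 0.858 lower, nor under LPS/IFN-gamma, where it was 1.13 higher and 3.51 lower. At an unadjusted p below 0.05, 6 members passed in medium and 15 under LPS/IFN-gamma, of 1720 and 2596 genes in all. DESeq2 called Dnajc22 higher and Bag1 lower in KO clones in medium, and Dnajb11, Dnajc22, Hspa4l, Hspe1 and Hsph1 higher under LPS/IFN-gamma, where its percent called over all genes was 1.41 higher and 3.79 lower in medium and 3.21 and 6.63 under LPS/IFN-gamma. Over the members, the median log2 fold change of KO against WT clones was 0.03 in medium (-0.01 over all genes). Under LPS/IFN-gamma it was 0.12 (-0.02 over all genes), and 49 of the 68 were positive, against 47.5 percent of all genes. In that condition the 3 KO libraries lay above the 3 WT libraries in 20 members and below them in 5, where percent called by that rule over all genes was 11.3 higher and 12.7 lower. In medium the counts were 7 above and 3 below, against 9.5 and 11.4 percent. The 20 genes were Bag4, Cct2, Cct3, Cct4, Cct6a, Cct8, Dnaja1, Dnajb11, Dnajc22, Dnajc24, Dnajc27, Hsp90aa1, Hsp90ab1, Hspa13, Hspa4l, Hspd1, Hspe1, Hsph1, Stip1 and Tcp1. All 8 TRiC genes were positive in both conditions, from 0.02 to 0.24 in medium and from 0.12 (Tcp1) to 0.41 (Cct3) under LPS/IFN-gamma, with TMM, RLE and library totals scaling, and none was called. Summed macrophage markers differed between clones, at 8760 to 19540 CPM in WT libraries and 4658 to 5916 CPM in those of KO clones 1A and 1B. KO clone 2 had 13980 CPM in medium and 11830 CPM under LPS/IFN-gamma, within the WT range. Of these, Lyz2 alone made up 10560 and 7383 CPM. In medium, KO clone 2 lay below every WT clone for Adgre1 (25.4 against 55.2 to 213 CPM), Itgam, Fcgr1, Lgals3, Cd68 and Spi1. It lay within their range for Lyz2, Csf1r and Mertk and just above them for Cd14 (598 against 121 to 594 CPM). Over the 10 markers the median log2 fold change of KO against WT clones in medium was -1.02, with 9 negative, 1 positive and 1 called lower. Under LPS/IFN-gamma it was -0.86, with 8 negative, 2 positive and 0 called. The part of these markers in the differences between genotypes was not tested. In RNA from whole cultures, fewer cells that express a gene and less RNA per cell cannot be told apart.

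**Figure D4:**
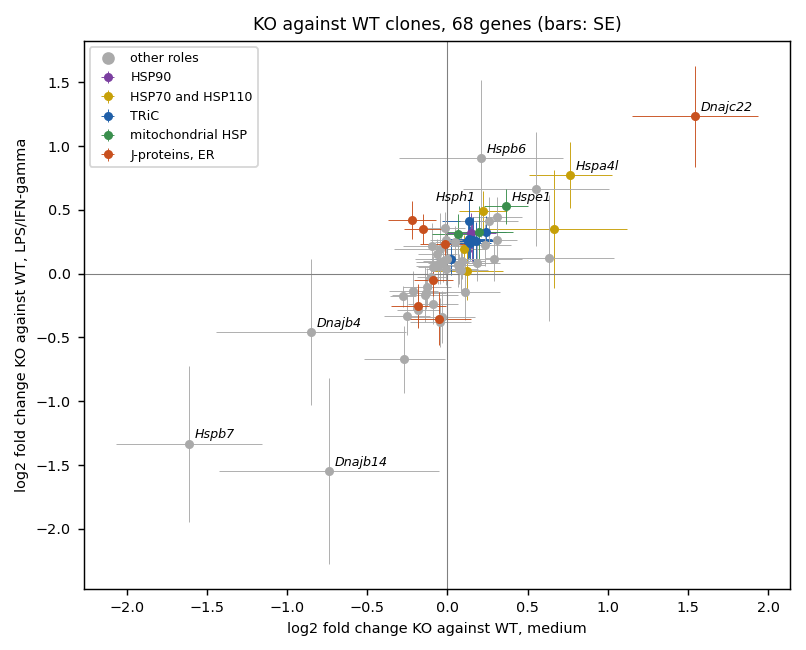
Log2 fold change of KO against WT clones in medium (x axis) and under LPS/IFN-gamma (y axis) for the 68 genes, with bars for the SE and colours for 5 roles. Dnajc22 and Hspa4l lie high on both axes, Hspb7 low on both, TRiC genes lie above 0 on both, and no point passed an adjusted p of 0.05 on either axis.

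The members with the smallest p between genotypes, chosen after their values were seen, were these. Dnajc22 read 3.33, 1.10 and 4.54 CPM in WT and 8.02, 7.51 and 10.9 CPM in KO clones in medium, and 2.46, 3.24 and 3.89 CPM and 7.47, 8.12 and 7.0 CPM under LPS/IFN-gamma. The genotypes did not overlap in either condition, with log2 fold changes of 1.55 ± 0.39 (adjusted p = 0.0915) and 1.23 ± 0.40 (adjusted p = 0.108). Hspa4l, an HSP110, had 96.4, 52.1 and 75.4 CPM in WT and 126, 128 and 127 CPM in KO clones in medium, and 120, 70.3 and 106 CPM and 148, 137 and 222 CPM under LPS/IFN-gamma. It too kept the genotypes apart in both conditions, with log2 fold changes of 0.77 ± 0.26 (adjusted p = 0.192) and 0.77 ± 0.26 (adjusted p = 0.117). Under LPS/IFN-gamma, Hspe1 had the smallest p, with 0.53 ± 0.14 (adjusted p = 0.0543), followed by Hsph1 with 0.50 ± 0.15 (adjusted p = 0.0873). Hspe1 was called there on library totals alone and with the filter at a mean of 5 CPM, where 1.34 and 1.39 percent of all genes were called higher. The other 2 in medium were Hspb7 (-1.61 ± 0.46, adjusted p = 0.126) and Bag1 (-0.28 ± 0.08, adjusted p = 0.129).

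No member had a response called different between KO and WT clones, and percent called over all genes was 0 in either direction. At an unadjusted p below 0.05, 2 members passed among 611 genes, and DESeq2 called 20 genes and 0 members. Those 2, chosen after their values were seen, were the ER J-protein genes Dnajb11 and Dnajc3. By clone, as differences of log2(CPM + 1), Dnajb11 responded by 0.36, 0.30 and 0.26 in WT and 0.84, 0.79 and 0.79 in KO clones, and Dnajc3 by 0.26, 0.08 and 0.01 in WT and 0.78, 0.69 and 0.80 in KO clones. All KO clones lay above all WT clones for both genes, with differences of 0.50 ± 0.17 and 0.64 ± 0.21 (adjusted p = 0.78 for each, edgeR). With clone as a replicate block 40 genes were called in the interaction and still 0 members.

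Genes that work with these proteins were read from lists chosen with earlier results known. Of 3 heat shock factor genes and regulators, Hsbp1, which binds heat shock factor 1, rose (0.37 in WT and 0.35 in KO clones), a call lost on library totals, while Hsf1 (-0.18 and 0.01) and Hsf2 (-0.19 and -0.11) did not pass. Of 18 further HSP90 co-chaperone genes, 6 rose and 3 fell in WT clones and 7 and 3 in KO clones; on library totals 1 rose and 7 fell, and 3 and 8. Sugt1, which works with HSP90 in immune receptor complexes, rose by 1.02 and 1.28, Chordc1, its partner, by 0.66 and 0.84, and Fkbp5, a glucocorticoid-induced immunophilin, was at -1.09 and -1.08 (adjusted p = 3.94e-05 and 3.15e-05, edgeR). Of 9 further HSP70 partner genes, 2 rose and 3 fell in WT clones and 3 and 3 in KO clones, among them Stub1, the ubiquitin ligase CHIP (-0.64 and -0.75), and St13 (0.36 and 0.50). On library totals 0 of the 9 rose and 3 fell in each genotype. Of 11 prefoldin genes and TRiC partners, 5 rose and 1 fell in each genotype, with the tubulin cofactor Tbca at 0.64 and 0.62 and the prefoldin subunit Pfdn4 at 0.50 and 0.70; on library totals 0 rose and 1 fell in WT clones and 1 and 4 in KO clones. Of 14 mitochondrial chaperone and protease genes, 3 rose and 3 fell in WT clones and 3 and 2 in KO clones. Hscb, a J-protein of iron-sulfur cluster assembly whose symbol the rule does not take in, fell in both (-1.42 and -1.95), and Yme1l1, a protease of the inner membrane, rose (0.61 and 0.71). On library totals 1 of the 14 rose and 9 fell, and 2 and 8. Between genotypes, 2 of all these genes were called, both HSP90 co-chaperones and both named after their values were seen. Ppid, a cyclophilin, was higher in KO clones in medium (0.70 ± 0.14, adjusted p = 0.0432) and under LPS/IFN-gamma (0.85 ± 0.14, adjusted p = 0.0109). Cdc37l1 was higher under LPS/IFN-gamma (0.42 ± 0.10, adjusted p = 0.0358).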

How the data were processed

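The authors deposited 1 table of raw read counts per Ensembl gene for the 12 libraries; build mm10 (GRCm38) and DESeq2 are named, per the submitters' processing notes, while the sources used here do not give aligner, counter or strand setting. Gene names came from GENCODE M21 and promoters from RefSeq GRCm38.p6; Cct6a counts as protein-coding by RefSeq alone. Tests were run with edgeR 4.0.16 (R 4.3.3) on the 12231 of 12483 genes that filterByExpr kept, with TMM scaling, robust quasi-likelihood fits and 1 mean for each of the 4 groups, leaving 8 residual degrees of freedom (common coefficient of variation between clones 23.6%). The code was tested on simulated data. P-values measure the spread between clones, with KO clones 1A and 1B taken as separate clones. The SE is the absolute log2 fold change over the root of F. The labels give each clone a library in both conditions, and own-clone deviations correlated at 0.34 to 0.68. For KO clones 1A and 1B they were 0.37 and 0.34, against up to 0.35 and 0.22 with another KO clone. For every other clone, the highest correlation with another clone of its genotype was negative. Deviations from the mean of a group of 3 libraries sum to 0, so a positive own-clone value pulls the others below 0. No conclusion is drawn from these negative values. Alternatives were RLE, library totals, DESeq2 1.42.0, 2 other filters, the 2 groups compared, the clone block, KO 1A and 1B summed, a fold of 1.5 and leaving out each library. Values in every library are given for 13 genes fixed by name and for the 8 highest and 8 lowest called members of each response with a group mean of at least 5 CPM. Members and lists were chosen with earlier results of these data known.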

Additional observations from a re-analysis of the deposited data

Results flagged for a closer look

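Dnajc16, an ER J-protein, moved in opposite directions in the clones of the 2 genotypes. As differences of log2(CPM + 1) between LPS/IFN-gamma and medium, WT clones 1, 2 and 3 were at 0.158, 0.244 and 0.011 and KO clones 1A, 1B and 2 at -0.126, -0.199 and -0.08, a difference between the means of -0.273. In edgeR's quasi-likelihood test of the difference of responses the log2 value was -0.30 and did not pass (adjusted p = 1), and neither response was called (0.16 and -0.14). It was the only 1 of the 68 members with such a pattern, and WT clone 3 lay close to 0.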

How the results depend on the processing

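RLE size factors and no filter on low counts kept every count of called members within 1.5 times its value. On library totals alone 5 members were higher and 19 lower in WT clones and 11 and 18 in KO clones. On that scale 1 was higher in KO than in WT clones under LPS/IFN-gamma, against 1.34 percent of all genes. Ahsa1, Hspa4, Hspd1 and Stip1 then turned negative, at -0.28, -0.177, -0.132 and -0.228 in WT and -0.163, -0.109, -0.026 and -0.089 in KO clones. Hspa8, Bag3, Hspe1, Dnajc21 and Hspbap1 stayed positive on that scale but were called in neither response. With DESeq2, 1 member was higher and 1 lower in KO clones in medium and 5 were higher under LPS/IFN-gamma, where a filter at a mean of 5 CPM gave 1. With that filter 1.39 percent of all genes were higher there. With only the 2 groups compared in the fit, 12 of 68 were higher and 3 lower in WT clones, against 17.3 and 17 percent of all genes. Clone as a replicate block gave 14 lower in WT clones, and no member in the difference of responses. With KO clones 1A and 1B summed as 1, 5 were lower in WT and 4 in KO clones, and 21 higher in KO clones. Of all genes, 20.3 and 19.2 percent were then lower in WT and KO clones, and 19.9 percent higher in KO clones. A test against a fold of 1.5 left 3 higher and 2 lower in WT clones and 9 and 2 in KO clones. Of all genes it left 10.2 percent higher and 9.88 lower in WT and 12.3 and 13.8 percent in KO clones. Leaving out 1 library at a time gave 15 to 22 higher and 5 to 9 lower in the WT response, 25 to 27 and 6 to 8 in the KO response, 0 to 2 higher between genotypes in medium (2, Dnajc22 and Hspe1, without the medium library of WT clone 3) and 0 to 1 under LPS/IFN-gamma (Dnajc3 without the library of WT clone 1, Hsph1 without that of WT clone 3). It gave 0 lower in both genotype comparisons and 0 in the difference of responses. Of all genes, these fits called 19.7 to 23.9 percent higher and 20.5 to 23.1 lower in the WT response. In the KO response the shares were 22.4 to 24.3 and 23 to 24.5 percent. Between genotypes in medium, 0.446 percent of all genes were higher without the library of WT clone 3. Under LPS/IFN-gamma the share was 0.802 percent without the library of WT clone 1 and 1.76 percent without that of WT clone 3. Over these fits Ahsa1 ranged up to 0.146 and Stip1 up to 0.3 in WT clones. Ahsa1 turned negative in WT clones without the stimulated library of clone 1 (-0.05) or the medium library of clone 2 (-0.065), and Stip1 without the medium library of clone 2 (-0.04) or the stimulated library of clone 3 (-0.016). The causes were not tested. Members under 5 CPM, such as Hspb6, Hspb7, Dnajb5, Dnajc28 and Hspa2, rest on few counts.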
